A study of Rattus norvegicus with 39 samples.

Results

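The 10 genes described here make, carry or remodel plasma lipoproteins. They are the apolipoprotein genes Apoa1, Apoa2, Apoa4, Apoa5, Apob, Apoc3 and Apoe, the triglyceride transfer gene Mttp, and the plasma enzyme genes Lipc and Lcat. They were picked by symbol and are 10 of the 14217 genes that the array named by a single symbol. Of the 20826 probe sets with 1 symbol, 12 belonged to them, since Apob and Apoe each had a second probe set.

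Liver RNA from rats aged 5 to 6 weeks was hybridised to 39 Affymetrix GeneChip Rat230 version 2 arrays. The labels call these biological replicates, read here as 1 array per animal, and the left lateral lobe was sampled at 48 h. Each compound group held 5 arrays and the untreated control 9. ANIT was given at 125 mg/kg in corn oil, DMN and DNP each at 15 mg/kg in water, and Roziglitazone, as the labels spell it, at 1000 mg/kg in methylcellulose, all by mouth. NMF at 1000 mg/kg and Caerulein at 50 µg/kg were injected intraperitoneally in saline. The labels give no strain, no sex and no vehicle-dosed animals, so in a comparison with the untreated control the compound cannot be told apart from its vehicle and route. DMN shared vehicle, route and dose with DNP, and NMF shared vehicle and route with Caerulein, so those pairs were also compared directly. ANIT, DMN and NMF are known liver toxicants.

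The liver releases triglyceride in very low density lipoproteins, built when Mttp loads lipid onto apolipoprotein B, and it makes most of the apolipoproteins of high density lipoprotein. In the blood these particles are remodelled: Lcat esterifies cholesterol on high density lipoprotein, and hepatic lipase, the product of Lipc, cuts triglyceride and phospholipid of remnants and high density lipoprotein at the liver surface. Apolipoproteins E, C-III, A-IV and A-V set how fast particles are hydrolysed and taken up.

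Hepatic lipase showed the largest decrease of the 10 genes, so the 250 bases before its transcription start are printed here, beside those of Apoa4 and Apoa5, which are neighbours in the genome and had different values. RefSeq windows on build GRCr8 matched 5 of the 10 genes, in 8 windows. Capitals mark 3 motifs, each sought on both strands. The first is AGGTCA, a core motif of nuclear receptors (TGACCT when read from the other strand). Next comes GTTAAT, from the HNF1 motif, whose reverse complement is ATTAAC. The last is TATAAA, the TATA box motif of some core promoters, with TTTATA on the opposite strand.
Lipc, chr8:80516286-80516535, minus strand: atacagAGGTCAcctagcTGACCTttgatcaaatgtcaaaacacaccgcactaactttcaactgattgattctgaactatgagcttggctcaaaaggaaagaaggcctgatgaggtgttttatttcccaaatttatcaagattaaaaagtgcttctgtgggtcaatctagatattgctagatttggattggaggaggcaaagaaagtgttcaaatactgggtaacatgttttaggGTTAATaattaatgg
Apoa4, chr8:55435529-55435778, plus strand: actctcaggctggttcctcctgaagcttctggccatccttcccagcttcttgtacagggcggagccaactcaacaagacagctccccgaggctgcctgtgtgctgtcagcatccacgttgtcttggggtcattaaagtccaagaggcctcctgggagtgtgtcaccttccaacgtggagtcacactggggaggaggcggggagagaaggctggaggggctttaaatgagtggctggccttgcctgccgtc
Apoa5, first of its windows, chr8:55457621-55457870, plus strand: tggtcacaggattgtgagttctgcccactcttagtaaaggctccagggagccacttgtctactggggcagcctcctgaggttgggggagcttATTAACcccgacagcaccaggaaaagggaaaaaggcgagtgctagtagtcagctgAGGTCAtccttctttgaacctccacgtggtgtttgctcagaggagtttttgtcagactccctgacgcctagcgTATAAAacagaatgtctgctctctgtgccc
The Lipc window held 2 AGGTCA matches and 1 GTTAAT match, the Apoa5 window 1 match of each of the 3 motifs, and the Apoa4 window 0. The Apoe and Lcat windows, not printed, held 0 as well. Each motif was present in 2 of the 8 windows. Among 33469 rat windows of this length, 14.1% held AGGTCA, 6.45% held GTTAAT and 12.9% held TATAAA. A match describes letters and no binding was measured. In the RefSeq gene order Apoa1, Apoc3, Apoa4 and Apoa5 follow one another with no annotated gene between them.

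Values are log2 of the deposited array intensity, so a difference of 1 is a 2-fold change in signal. A gene is described as called, or as having risen or fallen, where limma's moderated test gave a Benjamini-Hochberg adjusted p under 0.05 over all 14217 genes. In liver pieces, fewer cells of a type and less RNA per cell cannot be told apart.

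Some arrays stood apart from the rest. On 7 arrays (ANIT 5, DMN 3, DNP 1, NMF 3, Roziglitazone 1, control 4 and control 5) the GAPDH 5′ control probe set read 6.34 to 10.49, against 11.59 to 12.93 on the other 32, and no Caerulein array was among them. The GAPDH 3′ probe set was low as well on DNP 1, Roziglitazone 1 and control 5 (9.99, 10.84 and 8.09). It read 12.78 to 13.06 on the remaining low arrays and 12.66 to 13.27 on the other 32. Each array was also set against the mean profiles of the groups over 14217 genes, which are not independent. By this measure 24 of 39 arrays were closer to another group than to their own, 4 of them among the 15 ANIT, DMN and NMF arrays, and the rest in the control and in the 3 compound groups that differed from it by no called gene. The arrays labelled ANIT 3, DMN 2 and Roziglitazone 2 were left out as a set in one alternative. The deviation of ANIT 3 from the mean of the groups correlated at 0.25 with the other ANIT arrays and at 0.68 with DMN. Roziglitazone 2 correlated at −0.35 with its own group and at 0.80 with ANIT, and DMN 2 at −0.05 with its own group and at no more than 0.13 with any other. The other toxicant arrays closer to another group were NMF 3 (0.12 with its own, 0.15 with ANIT) and NMF 4 (0.24 and 0.30). Results that rest on the 7 low GAPDH 5′ arrays or on that set of 3 are given with and without them. The 3 were picked out from the same gene values that are tested, so leaving them out narrows their groups by construction, and calls that appear only without them are descriptions and no separate evidence. The liver label fitted its markers: 9 of 10 hepatocyte genes were measured, and their summed signal lay between 16.46 and 17.01 on all arrays. In ANIT, DMN and NMF against control, 0, 1 and 0 of these 9 were called.

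Against untreated control, 1 of the 10 genes rose (Apoa1) and 2 fell (Lipc, Apoa4) after ANIT, where 16.5% of all genes were called, 8.19% higher and 8.29% lower. After DMN, 1 fell (Apoa2), with 10.4% of all genes called and 4.53% lower. After NMF, 4 fell (Lipc, Apoa4, Apoa2, Apoc3), with 7.48% of all genes called and 3.63% lower. None was called after Caerulein, DNP or Roziglitazone, where limma called 0% of all genes, and at an unadjusted p under 0.05 the counts were 1, 0 and 0 of the 10 and 541, 199 and 1044 of all genes. All 6 comparisons share the control arrays. An F test over the 7 groups called 4 of the 10 (Apoa2, Apoa4, Apoc3 and Lipc) and 19.5% of all genes.

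**Figure D1:**
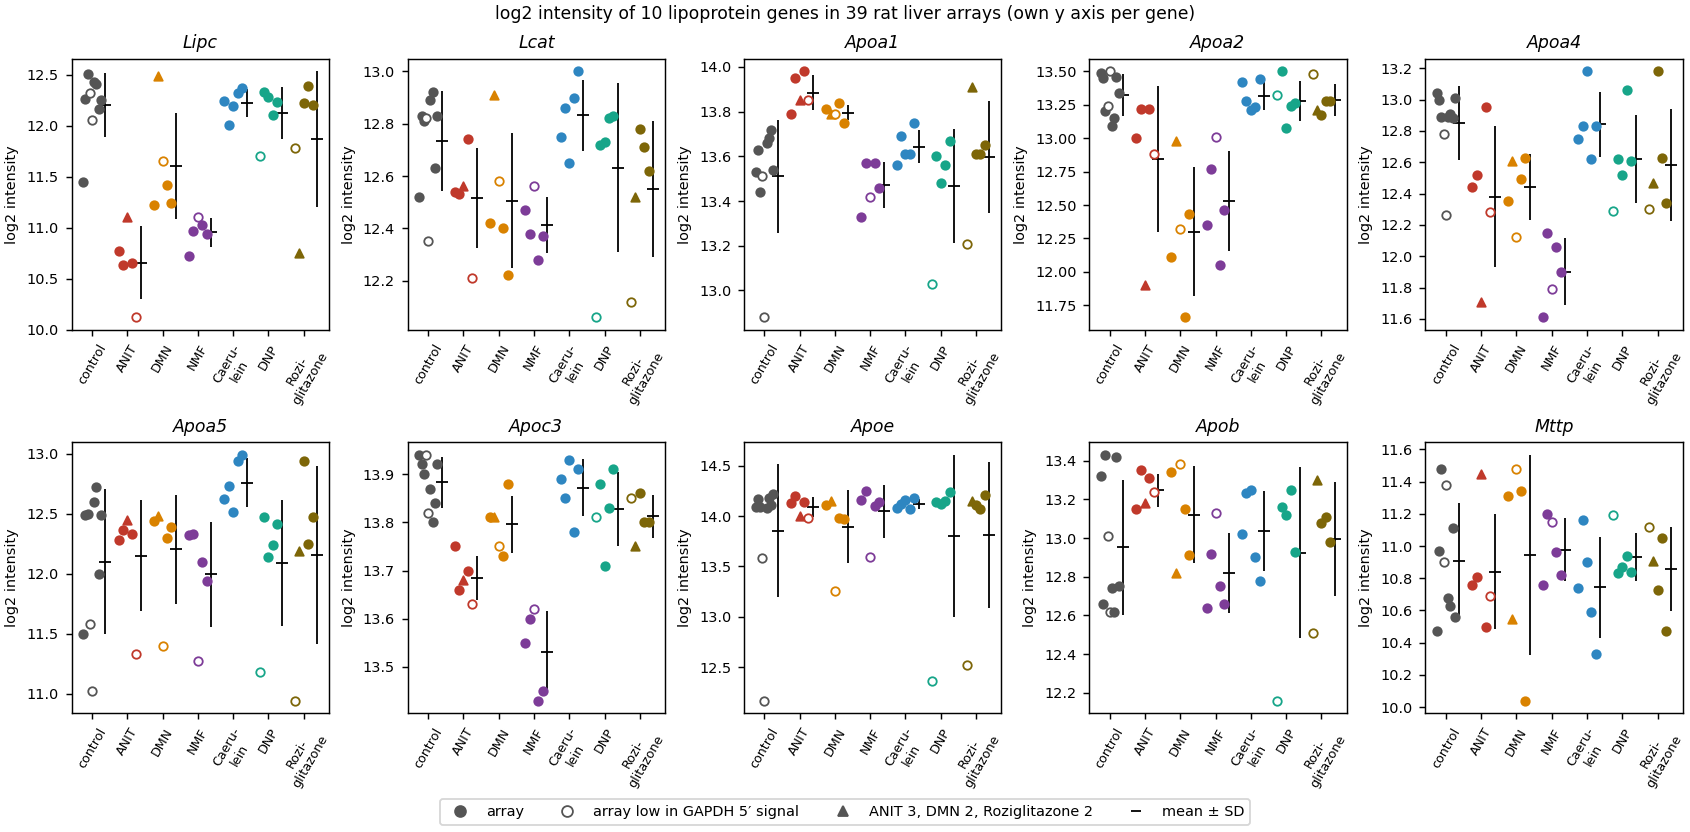
Log2 intensity (y axis, own scale per gene) of the 10 genes on each array, by group (x axis). Points are arrays, open where GAPDH 5′ signal was low and triangles for ANIT 3, DMN 2 and Roziglitazone 2, and black bars are the mean ± SD. Lipc of all ANIT and NMF arrays lies below the control range of 11.45 to 12.51, and the lowest points of Apoe and Apoa5 are open.

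Lipc, the hepatic lipase gene, showed the largest decreases after ANIT and NMF. Control arrays ran from 11.45 to 12.51 with a median of 12.26. The ANIT arrays read 10.77, 10.63, 11.11, 10.65 and 10.12, and the NMF arrays 10.72, 10.97, 11.11, 11.03 and 10.94. Every array of both groups was below the lowest control. The mean was lower by 1.55 ± 0.21 log2 (SE) after ANIT, a 2.94-fold drop (adjusted p = 4.37e-06, lower in 5 of 5 arrays), and 2.38-fold lower after NMF (log2 difference −1.25 ± 0.21, adjusted p = 7.25e-05, 5 of 5). Both calls held under every one of the 14 alternative settings and with each array left out in turn.

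After DMN the Lipc arrays split, at 11.22, 12.49, 11.66, 11.42 and 11.24. The highest of them is the array labelled DMN 2, and the other 4 lay at the lower end of the control range or under it. With all arrays Lipc was at −0.60 ± 0.21 against control and missed the threshold (adjusted p = 0.0578). Without the set of 3 arrays named above it fell by 0.82 (adjusted p = 2.91e-04). Without the 7 low GAPDH 5′ arrays it was at −0.62 (adjusted p = 0.101).

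Lipc was not called after the other 3 compounds. Caerulein arrays read 12.24, 12.01, 12.20, 12.32 and 12.37, and DNP arrays 11.70, 12.33, 12.28, 12.11 and 12.23. The 95% intervals of the difference from control were −0.40 to 0.44 for Caerulein and −0.50 to 0.34 for DNP. Roziglitazone arrays read 11.78, 10.75, 12.22, 12.39 and 12.21, and the single value inside the ANIT range is that of the array labelled Roziglitazone 2. In the order of group means Lipc ran from Caerulein (12.23) through control, DNP, Roziglitazone, DMN and NMF to ANIT (10.65), and DMN to NMF was the only step larger than the wider SD of its neighbours.

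Lcat, which esterifies cholesterol on high density lipoprotein, had its lowest mean after NMF (12.41 ± 0.11, SD, n = 5) and its highest after Caerulein (12.83 ± 0.14). Control arrays lay at 12.35 to 12.92. The NMF arrays, at 12.47, 12.38, 12.56, 12.28 and 12.37, overlapped the control. The difference from control, −0.32 ± 0.13, was not called (adjusted p = 0.151). Without the low GAPDH 5′ arrays Lcat fell after NMF by 0.40 (adjusted p = 0.0238), and without these and that set of 3 it also fell after DMN by 0.43 (adjusted p = 0.00893). The lowest control, 12.35, was on a low GAPDH 5′ array.

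Apoa1 and Apoa2 encode the main structural proteins of high density lipoprotein, and they had opposite signs after ANIT and DMN. Apoa1 control arrays ran from 12.88 to 13.72 with a median of 13.54. ANIT arrays read 13.79, 13.95, 13.85, 13.98 and 13.85, and DMN arrays 13.81, 13.79, 13.79, 13.84 and 13.75. All 10 were above the highest control. Apoa1 rose after ANIT by 0.38 ± 0.12, 1.30-fold (adjusted p = 0.026). That call was lost without ANIT 2 (0.36, adjusted p = 0.063), without ANIT 4 (0.35, adjusted p = 0.0668), and in a fit of ANIT and control alone (adjusted p = 0.0743). After DMN the difference of 0.29 ± 0.12 was not called (adjusted p = 0.122). The lowest control, 12.88, was on a low GAPDH 5′ array. Without the low GAPDH 5′ arrays the means were 13.60 in control, 13.89 after ANIT and 13.80 after DMN, and the ANIT call held. NMF arrays, at 13.33 to 13.57, lay within the control range, and the 95% interval of their difference was −0.28 to 0.20. Arrays of 3 of the 10 genes did not overlap the control after ANIT (5.74% of all genes), 2 after DMN (2.33%) and 4 after NMF (3.94%).

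Apoa2 control arrays lay between 13.09 and 13.50 with a median of 13.34. DMN arrays read 12.11, 12.98, 12.32, 11.66 and 12.43, and NMF arrays 12.35, 12.77, 13.01, 12.05 and 12.46. All 10 were below the lowest control, and the highest DMN value was again on the array labelled DMN 2. Apoa2 fell 2.03-fold after DMN (log2 difference −1.02 ± 0.18, adjusted p = 1.54e-04) and 1.74-fold after NMF (−0.80 ± 0.18, adjusted p = 0.00231). Neither call was lost under any of the 14 alternatives or on leaving out an array. ANIT arrays read 13.00, 13.22, 11.90, 13.22 and 12.88, so that 3 of 5 were below every control. Those labelled ANIT 3 and ANIT 5 lay within the DMN range, ANIT 5 only through the array labelled DMN 2 (12.98). The ANIT difference was −0.48 with all arrays (adjusted p = 0.0549) and −0.24 without the set of 3 arrays named above (adjusted p = 0.266). Caerulein, DNP and Roziglitazone means were 13.31, 13.28 and 13.28 against 13.32 in control.

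**Figure D2:**
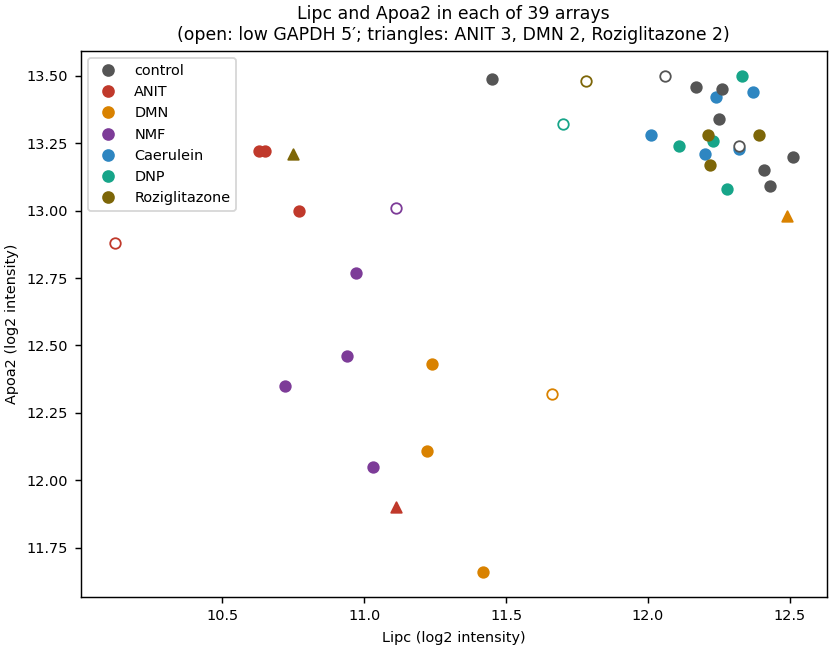
Apoa2 (y axis) against Lipc (x axis), both log2 intensity, 1 point per array, coloured by group, open for low GAPDH 5′ arrays and triangles for ANIT 3, DMN 2 and Roziglitazone 2. The 4 other ANIT arrays are at 10.12 to 10.77 for Lipc with Apoa2 at 12.88 to 13.22, while the 4 other DMN arrays are at 11.22 to 11.66 for Lipc with Apoa2 at 11.66 to 12.43.

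In the plot of Apoa2 against Lipc the lowest group mean of Lipc was that of ANIT and the lowest of Apoa2 that of DMN. In the direct comparison of ANIT with DMN, 1 of the 10 genes was called, where 2.53% of all genes were called and 1.07% lower: Lipc was 1.93-fold lower after ANIT (−0.95 ± 0.24, adjusted p = 0.0238, all 5 ANIT arrays below all DMN arrays). Its arrays were the only ones of the 10 genes without overlap (2.12% of all genes). That call was lost without the low GAPDH 5′ arrays (−0.80, adjusted p = 0.128), without DMN 2 (−0.73, adjusted p = 0.0757), without ANIT 2, ANIT 4 or ANIT 5 (adjusted p = 0.0666, 0.0686 and 0.113) and in a fit of those groups alone (adjusted p = 0.181). Apoa2 was higher after ANIT than after DMN by 0.54 ± 0.20, not called with all arrays (adjusted p = 0.133). Without the set of 3 arrays named above both were called, Lipc at −0.85 (adjusted p = 0.00244) and Apoa2 at 0.95 (adjusted p = 2.05e-04).

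ANIT against NMF and DMN against NMF gave no call among the 10 genes, with 6.61% and 4.66% of all genes called. At an unadjusted p under 0.05 limma gave 3 and 4 of the 10 and 3099 and 2051 of all genes. Arrays did not overlap for 3 genes in each (7.61% and 3.40% of all genes). Apoa1 was higher after ANIT than after NMF by 0.41 ± 0.14 (adjusted p = 0.0554), and without the low GAPDH 5′ arrays that difference was called (0.41, adjusted p = 0.0201). Apoc3 was higher after DMN than after NMF by 0.27 ± 0.09 (adjusted p = 0.0671). These 3 comparisons among the toxicants were added with the values known.

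Apolipoprotein A-IV is carried on chylomicrons and high density lipoprotein. Control arrays of Apoa4 ran from 12.26 to 13.04 with a median of 12.89, and the lowest was a low GAPDH 5′ array. NMF arrays read 11.61, 12.15, 11.79, 12.06 and 11.90, all below every control. Apoa4 fell 1.93-fold after NMF (−0.95 ± 0.16, adjusted p = 1.14e-04), with no call lost under any alternative or left-out array.

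After ANIT the Apoa4 arrays were spread from 11.71 to 12.95, at 12.44, 12.52, 11.71, 12.95 and 12.28. Apoa4 fell by 0.47 ± 0.16 (adjusted p = 0.0411, lower in 4 of 5 arrays). This call was lost under 6 of 14 alternatives and 11 of 14 left-out arrays, and without ANIT 3 the difference was −0.31 (adjusted p = 0.212). Leaving out ANIT 1, 2 or 5 gave adjusted p of 0.0642, 0.0527 and 0.0938, and leaving out any one of controls 1, 2, 3, 6, 7, 8 and 9 gave 0.0534 to 0.0662. DMN arrays, at 12.35, 12.61, 12.12, 12.49 and 12.63, gave −0.41 ± 0.16 (adjusted p = 0.104). Without the low GAPDH 5′ arrays Apoa4 lay at 12.35 to 12.63 after DMN and at 12.88 to 13.04 in control, and was not called there either. Since the intestine also makes Apoa4, 6 of 7 enterocyte genes were checked. Their summed signal was 8.46 to 9.21 in control and 8.57 to 9.10 after NMF, none was called after NMF, and Vil1, Si, Cdx1 and Alpi averaged 3.91 to 6.27, near or below the array medians of 6.28 to 6.76, with Cdx2 and Fabp2 at 7.16 and 7.07. Fabp2, a fatty acid binding protein, rose after ANIT by 1.22 (adjusted p = 3.94e-04) and after DMN by 1.15 (adjusted p = 0.00118).

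Apoc3, an inhibitor of triglyceride clearance, had an SD of at most 0.09 in every group. Control arrays spanned 13.80 to 13.94, and the NMF arrays read 13.55, 13.60, 13.62, 13.43 and 13.45. The NMF values lay below those of every other group. Apoc3 fell 1.28-fold after NMF (−0.36 ± 0.08, adjusted p = 0.00177, 5 of 5 arrays). ANIT arrays, at 13.75, 13.66, 13.68, 13.70 and 13.63, did not overlap the control either, but the difference of −0.20 ± 0.08 was not called (adjusted p = 0.0663). The highest value of any probe set was 14.50, and whether signals this high compress differences was not tested.

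Apoa5, an activator of triglyceride hydrolysis, had no call against control. Its highest mean was in Caerulein, with arrays at 12.62, 12.73, 12.51, 12.94 and 12.99. Control arrays ran from 11.02 to 12.72 with a median of 12.49, and the 2 low GAPDH 5′ controls were at 11.02 and 11.58. The Caerulein difference was 0.66 ± 0.28 (adjusted p = 0.994, 95% interval 0.09 to 1.23). It was 0.43 without the low GAPDH 5′ arrays and 0.40 with the GAPDH 5′ level as a covariate, not called in either. Intervals for the other 5 compounds lay within −0.68 to 0.67.

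Apoe, the ligand for receptor uptake of remnants, had no call and low values on the arrays with low GAPDH 5′ signal. It read 12.17 to 13.98 on the 7 low GAPDH 5′ arrays and 13.97 to 14.25 on the other 32. Without the low arrays the group means ran only from 14.05 ± 0.09 (DMN, n = 4) to 14.16 ± 0.06 (NMF, n = 4). Apoa5 moved with GAPDH 5′ as well, at 10.94 to 11.58 on the low arrays and 11.50 to 12.99 on the others. Each low array was also set against the mean of those arrays of its group that were not low. Apoe, Apoa5, Apoa1 and Apoa4 were below that mean on 7 of 7 low arrays, whereas Apoa2 and Mttp were below it on 1 of 7. Apob, Apoc3, Lipc and Lcat were below it on 4 of 7, Lipc with differences from −0.67 to 0.19 and a median of −0.11. The median difference was −0.79 for Apoe and −1.03 for Apoa5, but −0.35 for Apoa4 and only −0.09 for Apoa1. What part RNA quality had in these values was not tested.

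**Figure D3:**
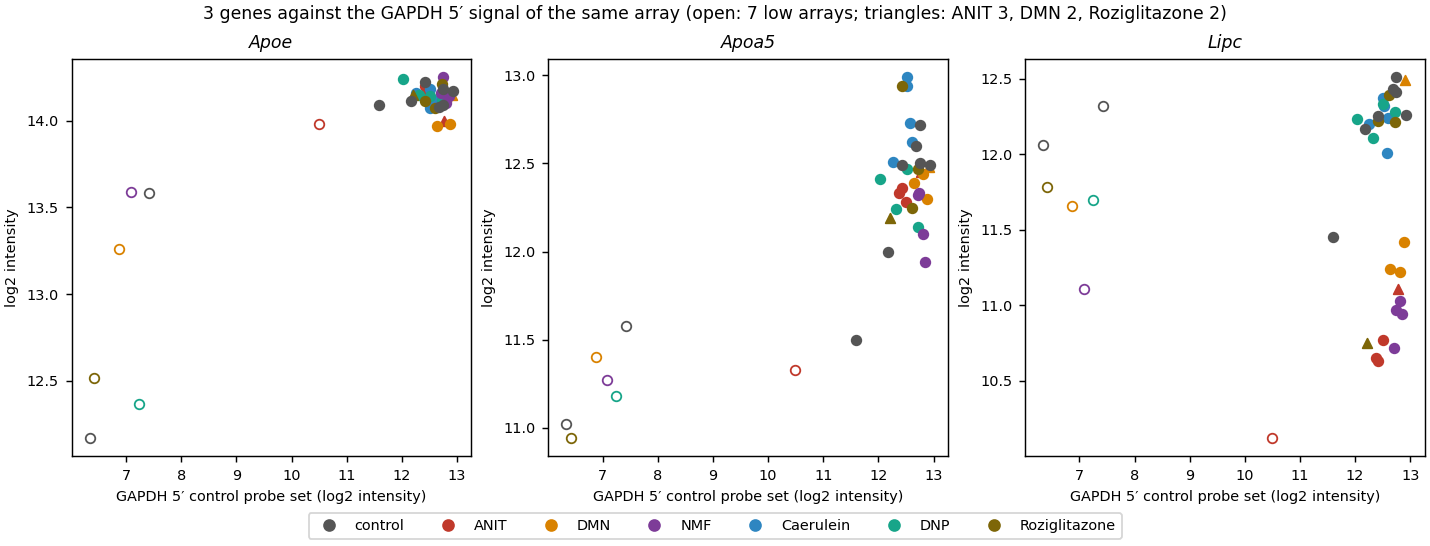
Apoe, Apoa5 and Lipc (y axes, log2 intensity) against the GAPDH 5′ control probe set (x axis, log2 intensity) of the same array, coloured by group, open for the 7 low arrays. Apoe of the low arrays is at 12.17 to 13.98 against 13.97 to 14.25 on the others. Lipc of the low arrays spans 10.12 to 12.32 within a range of 10.12 to 12.51, and both spans also hold the differences between groups.

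Neither assembly gene was called. Apob, the structural protein of very low density lipoprotein, had group means from 12.82 ± 0.21 (NMF) to 13.25 ± 0.09 (ANIT), with control at 12.95 ± 0.35 (n = 9). ANIT arrays read 13.15, 13.35, 13.18, 13.31 and 13.24, inside the control range of 12.62 to 13.43. The ANIT difference of 0.29 ± 0.17 was not called (adjusted p = 0.228, 95% interval −0.05 to 0.63), and the second Apob probe set gave −0.03 ± 0.19. The second probe sets of Apob and Apoe averaged 5.94 to 6.79 in every group, around the array medians, and were called in no comparison.

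Mttp, which loads lipid onto apolipoprotein B, had group means between 10.75 (Caerulein) and 10.98 (NMF). DMN arrays were the most scattered, at 11.31, 10.55, 11.48, 11.34 and 10.04, against 10.47 to 11.48 in control. Differences from control ran from −0.16 to 0.07, and their 95% intervals lay within −0.56 to 0.47. Only changes larger than these bounds lie outside what the arrays allow.

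**Figure D4:**
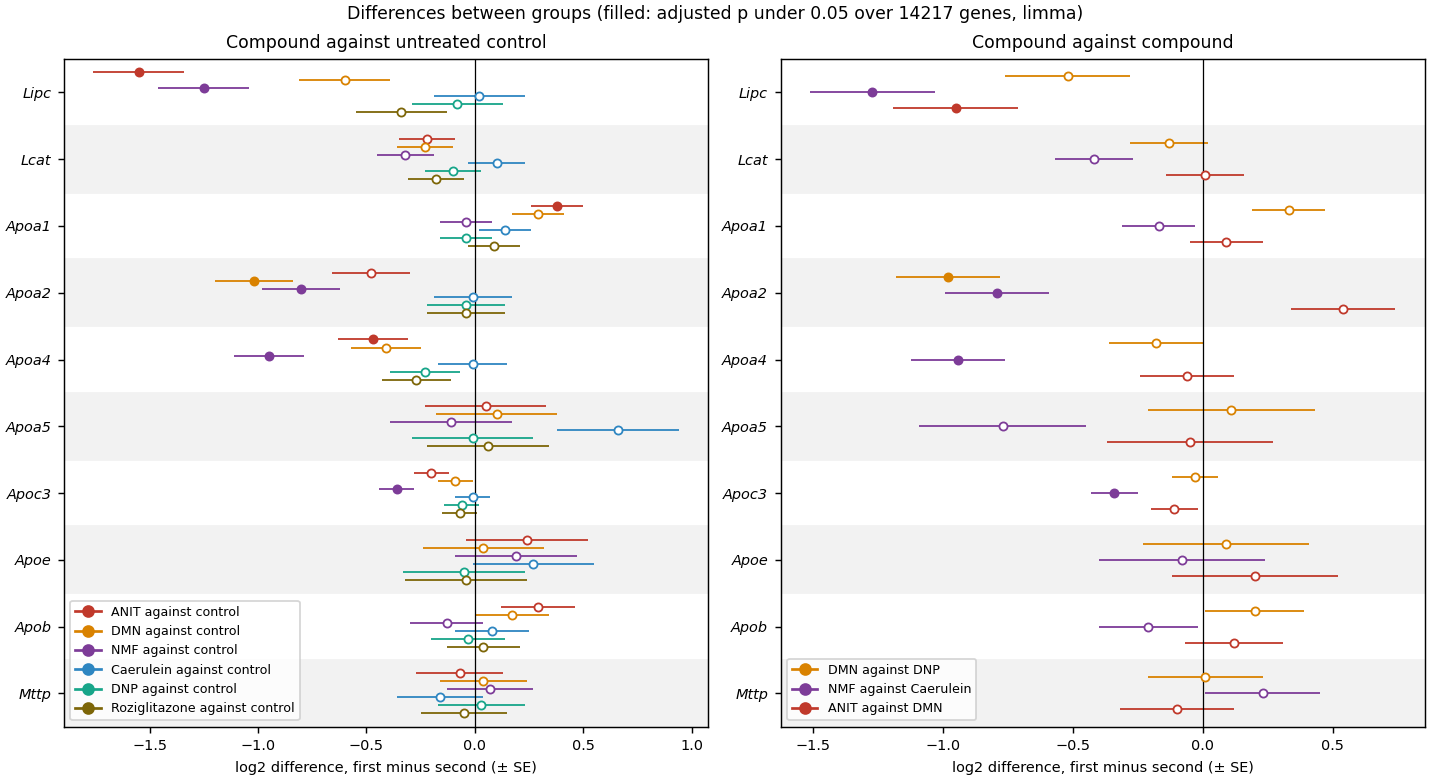
Log2 difference of group means ± SE (x axis) for each gene (y axis), for the 6 compounds against control (left) and for 3 pairs of compounds (right); filled points have an adjusted p under 0.05 over 14217 genes (limma). Filled points on the left are Lipc and Apoa4 after ANIT and NMF, Apoa2 after DMN and NMF, Apoc3 after NMF, and, to the right of 0, Apoa1 after ANIT.

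Comparisons at a matched vehicle and route set compound against compound, with the untreated arrays entering only the estimate of the spread. NMF against Caerulein called 4 of the 10 genes, all lower, where 5.49% of all genes were called and 2.06% lower: Lipc (−1.27 ± 0.24, adjusted p = 4.87e-04), Apoa4 (−0.94 ± 0.18, adjusted p = 9.77e-04), Apoa2 (−0.79 ± 0.20, adjusted p = 0.0122) and Apoc3 (−0.34 ± 0.09, adjusted p = 0.0119). In each of the 4 all NMF arrays were below all Caerulein arrays, as they were for Apoa5 and Lcat, so that 6 of the 10 genes did not overlap (9.0% of all genes). The Apoa2 call was lost without NMF 4 (−0.67, adjusted p = 0.0604), and that of Apoc3 in a fit of those groups alone (adjusted p = 0.105). Apoa5 was at −0.77 ± 0.32 (adjusted p = 0.177), and without the low GAPDH 5′ arrays, of which Caerulein had none, it fell by 0.59 (adjusted p = 0.0471). Lcat was at −0.42 ± 0.15 (adjusted p = 0.104), and fell by 0.45 without them (adjusted p = 0.0206). The doses differed between NMF and Caerulein.

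DMN against DNP, both at 15 mg/kg, called 1 of the 10 genes, with 6.89% of all genes called and 3.04% lower. Apoa2 fell 1.97-fold (−0.98 ± 0.20, adjusted p = 0.00171). DNP arrays of Apoa2 read 13.32, 13.50, 13.08, 13.24 and 13.26, all above every DMN array. Arrays of 2 of the 10 genes, Apoa1 and Apoa2, did not overlap (4.70% of all genes). Lipc was at −0.52 ± 0.24 (adjusted p = 0.183) with all arrays and fell by 0.74 without the set of 3 arrays named above (adjusted p = 0.00375).

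The mean of ANIT, DMN and NMF against that of Caerulein, DNP and Roziglitazone called 4 of the 10 genes lower, where 19.0% of all genes were called and 9.28% lower. Lipc fell by 1.0 ± 0.14 (adjusted p = 1.37e-06, lower in 14 of 15 arrays), Apoa2 by 0.73 ± 0.11 (adjusted p = 1.32e-05, 15 of 15), Apoa4 by 0.44 ± 0.11 (adjusted p = 0.00277, 14 of 15) and Apoc3 by 0.17 ± 0.05 (adjusted p = 0.015, 14 of 15). The exception for Lipc is the array labelled DMN 2. This comparison holds the same arrays as those above and adds no separate evidence.

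The rest of the lipoprotein pathway was described from 5 lists, with 68 of 79 genes measured. After ANIT 18 of these were called (26.5%, against 16.5% of all genes), after DMN 9 (13.2%, against 10.4%) and after NMF 5 (7.35%, against 7.48%), and none after the other 3 compounds. The NMF share was that of all genes and the DMN share near it. Calls that held under every alternative and left-out array numbered 7, 2 and 2.

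Of 12 measured other apolipoproteins and particle proteins, 3 fell after ANIT, 4 after DMN and 1 after NMF, and none rose. Their median difference was −0.25, −0.15 and −0.21, against −0.09, −0.06 and −0.05 over all genes. Apon, an apolipoprotein gene of rodents, fell 2.53-fold after ANIT (adjusted p = 4.07e-04) and 2.08-fold after DMN (adjusted p = 0.00614). Apoc1 and the high density lipoprotein esterases Pon1 and Pon3 made up the others. Pon3 fell 2.34-fold after NMF (adjusted p = 1.17e-04) and, losing its call without DMN 5, 1.77-fold after DMN (adjusted p = 0.00835; 0.0675 without it). Apoc1 fell by 0.38 after DMN (adjusted p = 0.009). Pon1, at −0.57 after DMN (adjusted p = 0.0329), reversed on another of its probe sets (0.74) and lost its call without DMN 1, DMN 5 or control 9 (adjusted p = 0.0967, 0.167 and 0.0532). Without the low GAPDH 5′ arrays 4 of the 12 fell after NMF.

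Of 16 measured assembly and secretion genes, 5 fell after ANIT, 2 fell and 1 rose after DMN, and 2 fell after NMF. The medians were −0.21, −0.09 and 0.11. Ces1d, a carboxylesterase that mobilises stored triglyceride for secretion, fell 4.04-fold after ANIT (−2.02 ± 0.30, adjusted p = 1.53e-05), 3.19-fold after DMN (adjusted p = 2.67e-04) and 2.24-fold after NMF (adjusted p = 0.0111; 0.0603 without NMF 1). Its ANIT arrays lay at 9.29 to 10.08 and the control at 11.16 to 12.31. Aadac, another microsomal lipid hydrolase, fell 2.88-fold after ANIT (adjusted p = 1.63e-04), and Cideb, a lipid droplet protein used in particle lipidation, 1.74-fold after NMF (adjusted p = 0.00148). Dgat2, the last enzyme of triglyceride synthesis, fell 1.54-fold after DMN (adjusted p = 0.0061), while its most variable probe set was at −0.74 ± 0.53 and not called (adjusted p = 0.459). Soat1, which esterifies cholesterol, rose after DMN from a control mean of 5.46, below the array medians, to 6.61 (adjusted p = 0.0354, 4 of 5 arrays), and no fold is given for it either. Removal of any of DMN 1, DMN 3, DMN 4, DMN 5, control 4 and control 9 ended that call, at adjusted p between 0.0547 and 0.155. It also ended without the low GAPDH 5′ arrays (0.98, adjusted p = 0.148) and on the mean of its probe sets (0.57, adjusted p = 0.144).

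Of 8 measured lipases, transfer proteins and inhibitors, 2 fell after ANIT, 1 rose and 1 fell after DMN, and 1 fell after NMF. Their medians were −0.13, −0.19 and −0.16. Angptl4, a secreted inhibitor of lipoprotein lipase, fell 2.78-fold after ANIT (adjusted p = 0.0069, 5 of 5 arrays). Angptl8, its insulin-responsive relative, rose 2.53-fold after DMN (adjusted p = 0.00816; 0.0652 without DMN 5, whose removal left 0.89). Lmf1, a lipase maturation factor, fell by 0.53 after DMN (adjusted p = 0.0122; 0.0514 without DMN 3, 0.0639 without DMN 5 and 0.0762 without the low GAPDH 5′ arrays). Pltp, the phospholipid transfer protein, fell by 0.67 after NMF (adjusted p = 0.0344), a call lost on leaving out any of NMF 1, 2, 4 and 5 or controls 1, 4, 6, 7 and 9 (adjusted p = 0.052 to 0.111). It was also lost with each array centred on its median (adjusted p = 0.0596) and with quantile normalization once more (adjusted p = 0.0513).

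Of 11 measured receptor and efflux genes, 2 rose and 3 fell after ANIT, and none was called after DMN or NMF. Scarb1, the high density lipoprotein receptor, rose 2.33-fold (9.71 ± 0.49 in control, 10.93 ± 0.51 after ANIT, adjusted p = 9.74e-04), while its most variable probe set was at 1.03 ± 0.61 and not called (adjusted p = 0.266). Sdc1, a heparan sulphate proteoglycan that takes up remnants, rose 2.75-fold (adjusted p = 0.00171) with ANIT arrays at 10.61 to 11.44 and control at 8.60 to 10.25. Abcg5 and Abcg8, the partner subunits of the sterol exporter into bile, fell (adjusted p = 0.00636 and 0.00472). Their means went from 8.09 to 6.12 and from 6.72 to 5.18, and since the latter are below the array medians no fold is given. The median of this list was −0.39 after ANIT, −0.07 after DMN and −0.13 after NMF.

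Of 21 measured transcriptional regulators, 3 fell after ANIT, 1 after NMF and 0 after DMN. Nr1h4, the bile acid receptor, fell 2.3-fold after ANIT (adjusted p = 0.00141) and 1.83-fold after NMF (adjusted p = 0.0318), the second call ending on removal of NMF 1, 2, 4 or 5, or of control 1 or 8 (adjusted p between 0.0544 and 0.103), or of the low GAPDH 5′ arrays (adjusted p = 0.0603). Foxa1, a liver forkhead factor, fell 2.36-fold after ANIT (adjusted p = 0.00245). Nr0b2, a repressor induced by Nr1h4, fell 2.32-fold (adjusted p = 0.0182; 0.0523 without ANIT 1 and 0.0584 without ANIT 4). The list medians were 0.08, −0.32 and −0.18.

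**Figure D5:**
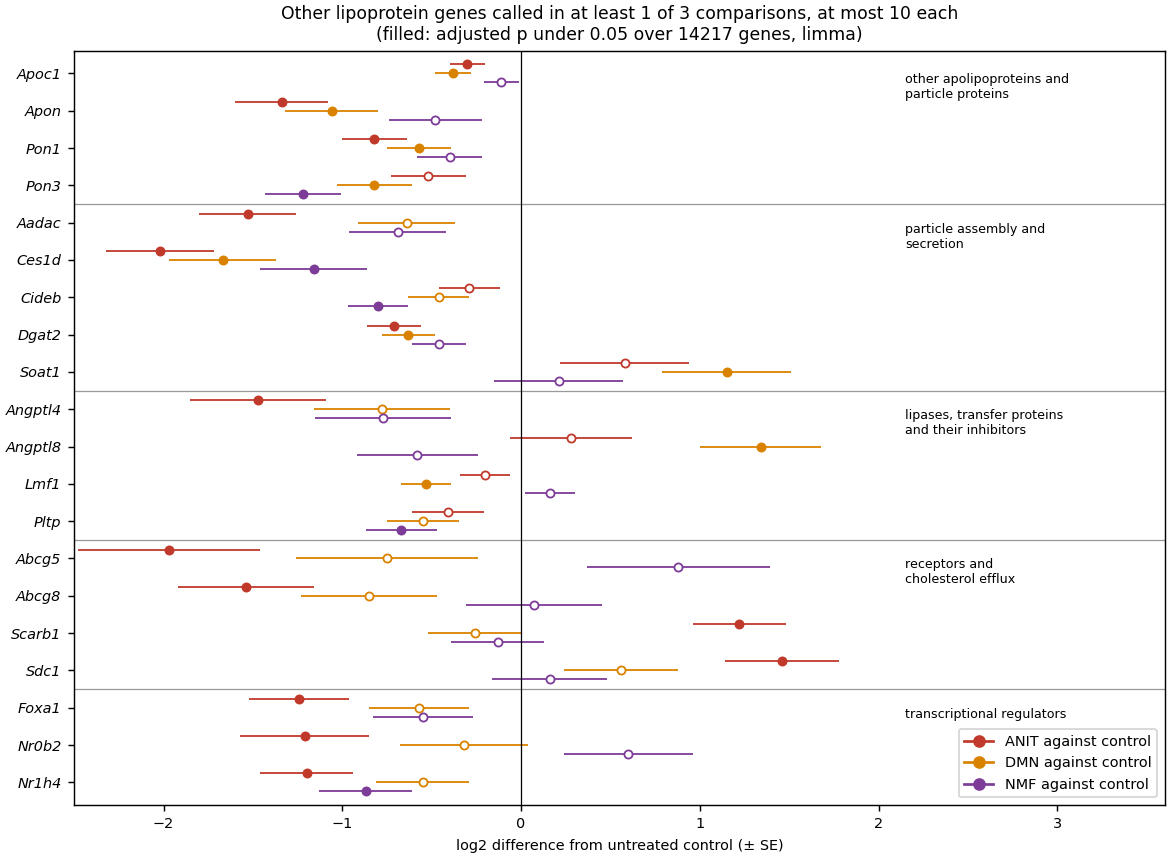
Log2 difference from untreated control ± SE (x axis) after ANIT, DMN and NMF for other lipoprotein genes (y axis), grouped by list; shown are all genes called after DMN or NMF and the 10 largest after ANIT, filled where called (limma). Ces1d is filled in all 3 comparisons, at −2.02, −1.67 and −1.16, and Scarb1 and Sdc1 are filled only after ANIT, at 1.22 and 1.46.

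Other cell types were followed by their markers in the same arrays. Of 10 macrophage genes Lyz2 and Gpnmb rose after both ANIT and DMN. Adgre1 and Cd14 fell after ANIT, Clec4f and Cd14 after DMN, and after NMF 1 rose (Gpnmb) and 2 fell (Clec4f and Csf1r). The summed signal was 13.26 to 13.80 in control, 13.43 to 13.95 after ANIT, 13.47 to 14.39 after DMN and 13.14 to 13.90 after NMF. Of 5 endothelial genes 2 fell after ANIT, 3 after DMN and 0 after NMF, with Stab2 at −2.08 and Kdr at −1.63 after DMN (adjusted p = 1.43e-05 and 1.73e-04). Their sum was 11.20 to 12.74 in control, 10.95 to 11.87 after ANIT and 11.20 to 12.03 after DMN. Of 7 stellate cell genes 3 fell after NMF (Col1a1, Col3a1 and Lrat), and 1 rose and 1 fell after each of ANIT and DMN. The NMF sums, 11.28 to 11.66, were all below the control sums of 11.93 to 12.97. Of 5 neutrophil genes 2 rose after DMN (8.75 to 10.18 in control, 8.56 to 12.80 after DMN). Of 3 erythroid genes 2 fell after NMF (11.88 to 13.51 in control, 11.13 to 12.04 after NMF), and 1 rose after DMN. Of 6 cholangiocyte genes 2 rose and 1 fell after ANIT (9.20 to 10.08 in control, 9.57 to 10.73 after ANIT), 1 rose and 1 fell after DMN, and 1 rose after NMF. Of 7 acinar genes 3, 1 and 1 fell after ANIT, DMN and NMF, and of 6 lymphocyte genes 1 fell after ANIT. Their part in the results above was not tested.

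The genes closest in pattern to each member were sought among 8475 genes with a mean over 7 log2, by Pearson r over the 39 arrays, which share groups, scaling and RNA quality. Closest to Lipc were Pklr (0.92, and 0.95 over the 32 arrays with normal GAPDH 5′), Serpina6 (0.92 and 0.94) and Cyp2b3 (0.92 and 0.91). Apoa2 was closest to Sez6l2 (0.89 and 0.90), Apoc3 to Arid1a (0.86 and 0.91) and Apoa4 to Opa3 (0.81 on both). The acute phase gene Hp was closest to Apoa1 (0.90 and 0.76). For Apoe the closest was Gstm2, at 0.97 over all arrays and 0.53 over the 32.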

How the data were processed

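GeneChip Rat230 version 2 intensities were deposited as the authors' RMA values, per the submitters' processing notes, which name the affy package without a version; the annotation build was not given in the sources used here. The deposited table held linear intensity rather than log2, so log2 was taken here. The authors' intensity has no read depth, and the number of arrays limits precision. Probe sets with several symbols (436) or none (9780) were left out, and each of 14217 genes was read from its brightest probe set (mean of 39 arrays); symbols were updated through RefSeq tables. limma 3.58.1 in R 4.3.3 (lmFit, contrasts.fit, eBayes) fitted 1 mean per group over all arrays, with Benjamini-Hochberg adjustment over all genes. Nothing in the labels says more of the animals than that they are biological replicates.

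All 10 members were named. From the 5 pathway lists, called genes were named, at most 10 per comparison by fold (Nr1h4, named for NMF, is also given for ANIT, where it was outside the 10), and for each member the 3 genes with the highest r were sought. The members and lists were chosen with earlier results of these data known, and the 3 comparisons among toxicants were added after the values were seen. Low GAPDH 5′ arrays were those over 1 log2 below the median. Replicate numbers, which the labels tie to no shared litter or day, were not used as a block. Alternatives covered scaling, offsets, filters, probe set choice, weights, trend, samples and the replicate block. The fit was tested on simulated data for NMF against control with 14217 genes, and recovered 20.9%, 70.1% and 98.5% of planted differences of 0.5, 1 and 2 log2. The simulated noise was normal and independent between genes and arrays, and no simulated array stood apart as some real ones did. Recovery in the real data can therefore differ.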

Additional observations from a re-analysis of the deposited data

Results flagged for a closer look

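Of the 70 sets of arrays (10 genes in 7 groups), 13 held an array far from the rest of its group, where chance gives about 1 in 20, or 3.5. The genes were read on the same arrays, so the sets are not independent and the count is no test. The array was low in GAPDH 5′ signal in 11 of the 13, and the cause was not tested. Control 5 was lowest for Apoa1 (12.88, the others 13.44 to 13.72), Apoa4 (12.26, the others 12.78 to 13.04) and Apoe (12.17, the others 13.58 to 14.22). Apoe was also low on DMN 3 (13.26), NMF 3 (13.59), DNP 1 (12.37) and Roziglitazone 1 (12.52). Apoa5 was low on ANIT 5 (11.33), DMN 3 (11.40) and DNP 1 (11.18), and Lcat on DNP 1 (12.06, the others 12.72 to 12.83).

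The other 2 were not low in GAPDH 5′ signal. Apoa2 was at 11.90 on the array labelled ANIT 3, with the others at 12.88 to 13.22. Lipc was at 11.45 on control 1, with the others at 12.06 to 12.51.

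Lipc also differed between 2 toxicants measured against the same controls: it was lower after ANIT than after DMN by a log2 difference of −0.95 (limma, adjusted p = 0.0238). That call was lost under 2 of 14 alternatives and on leaving out any 1 of 4 of the 10 arrays.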

How the results depend on the processing

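Of 120 pairs of a member and a comparison, 18 were called with all arrays, 25 more only under some alternative, and 77 under none. Of these 77, 51 turned sign somewhere, at no more than 0.32. The number of members called moved by over 1.5 times as follows. ANIT against control went from 3 to 5 (log2 of the value plus 32, without the lowest 30% of genes, mean-variance trend), 6 (array weights) or 1 (only those groups). DMN against control went from 1 to 2 (quantile normalization, without the lowest 30%, without the 3 arrays ANIT 3, DMN 2 and Roziglitazone 2), 3 (GAPDH 5′ covariate, without both kinds of array) or 4 (weights). DMN against DNP went from 1 to 2 (quantile, weights, without the 3 arrays) or 3 (without both kinds). ANIT against DMN went from 1 to 2 (weights, without the 3 arrays, without both kinds) or 0 (only those groups, without the low GAPDH 5′ arrays; the latter gave 47 genes in all). ANIT against NMF went from 0 to 1 (quantile, offset, filter, trend, covariate, without low arrays), 2 (without the 3 arrays), 3 (without both) or 4 (weights). DMN against NMF went from 0 to 1 (offset, filter, mean of probe sets, trend) or 2 (weights, covariate). Removal of both kinds was chosen after seeing the data. With 1 array left out the counts were 2 to 3 (ANIT), 1 to 2 (DMN), 4 to 4 (NMF), 1 to 2 (DMN against DNP), 3 to 4 (NMF against Caerulein), 4 to 5 (toxicants against others), 0 to 2 (ANIT against DMN, ANIT against NMF) and 0 to 0 elsewhere. With the replicate number as a block, where the labels pair nothing, DMN against control had 2 calls, ANIT against NMF 1 and ANIT against control 2. On the most variable probe set Apob turned to −0.03 (ANIT against control) and −0.23 (ANIT against NMF), and Pon1 to 0.69 (ANIT) and 0.74 (DMN), or 0.08 (DMN) on the mean of its probe sets. Fitting only those groups ended the DMN calls of Apoc1, Dgat2, Lmf1, Pon1, Pon3 and Soat1 and the NMF call of Pltp (adjusted p = 0.0672 to 0.136). Centring each array on its median ended the calls of Apoa4 after ANIT (adjusted p = 0.055), Pon1 after DMN (0.0627), and Nr1h4 and Pltp after NMF (0.0574 and 0.0596). Quantile normalization once more ended those of Apoa4 and Apoc1 after ANIT (adjusted p = 0.0878 and 0.134) and Pltp after NMF (0.0513). The replicate block ended 13 calls of members and pathway genes (adjusted p = 0.0516 to 0.169): after ANIT those of Apoa4 (0.149), Abcg5 (0.105), Abcg8 (0.0583), Angptl4 (0.0516) and 3 genes not named for ANIT, after DMN Angptl8 (0.0705), Pon1 (0.123), Pon3 (0.0578) and Soat1 (0.112), and after NMF Ces1d (0.0952) and Pltp (0.169). As a check of pairing, 58 of 105 same-numbered pairs of arrays deviated together (r over 0.1), against 115 of 420 unlike-numbered pairs. All 5 did so in 1 of 21 pairs of groups. That is seldom met even at a share of 58 in 105, so this count cannot decide on pairing. By mean correlation with the other groups, 18 of 35 arrays numbered 1 to 5 were closest to their own number, a hint from the data and not from the design. With array weights the calls over all genes went from 2344 to 4839 (ANIT), 1478 to 3468 (DMN), 1063 to 1900 (NMF), 0 to 5 (Caerulein), 0 to 9 (Roziglitazone), 980 to 2622 (DMN against DNP), 781 to 1782 (NMF against Caerulein), 2695 to 4491 (toxicants against others), 359 to 1769 (ANIT against DMN), 940 to 2934 (ANIT against NMF) and 662 to 1859 (DMN against NMF). With only those groups they were 859 (DMN), 266 (DMN against DNP), 0 (ANIT against DMN) and 186 (DMN against NMF). With the covariate they were 3574 (ANIT), 1535 (DMN against DNP), 880 (ANIT against DMN) and 1934 (ANIT against NMF). Without the 3 arrays they were 1578, 1116 and 1028 (DMN against DNP, ANIT against DMN, DMN against NMF), and without both kinds 1681 (NMF), 1568, 1356 (NMF against Caerulein), 993 and 1076.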
